A study of Mus musculus with 2 samples.

Results

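Autoantibodies and autoreactive T cells of autoimmune diabetes recognise several islet proteins that are not hormones, and the genes of 7 such autoantigens are described here in islet cells of NOD mice. The genes are Slc30a8, G6pc2, Ptprn, Ptprn2, Gad1, Gad2 and Ica1. They were picked by name and not by a rule on measured values, but with earlier results of these data known. All 7 were found among the 32285 genes of the count matrices. NOD mice are an inbred strain in which lymphocytes and myeloid cells infiltrate the islets before diabetes appears. Per the labels the mice were of NOD genotype, were 5 weeks old at the start and ate 1 of 2 diets for 5 weeks. The HAMS diet holds high-amylose maize starch. In HAMSAB this starch is acetylated and butyrylated, so that its fermentation in the gut yields acetate and butyrate. Each diet has 1 droplet library of isolated islets. The number of mice behind a library is not in the labels, and no library of mice on ordinary chow was analysed here.

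In type 1 diabetes the immune system destroys the beta cells of the islet, and antibodies against islet proteins appear in the blood before glucose rises. Several of the known targets sit in or on the vesicles that store and release hormone, where secretion carries them to the cell surface. Which endocrine cells make the RNA of each target, and how much, is therefore a basic property of the tissue under attack.

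The members fall into 4 groups by what they do. Slc30a8 encodes the zinc transporter ZnT8, which loads zinc into granules so that insulin can crystallise. G6pc2 encodes the islet glucose-6-phosphatase subunit known as IGRP, which takes the phosphate off glucose-6-phosphate and is a major target of CD8 T cells in NOD mice. Ptprn (IA-2) and Ptprn2 (phogrin, IA-2 beta) encode catalytically inactive receptor tyrosine phosphatases of the dense-core granule membrane. Gad1 (GAD67) and Gad2 (GAD65) encode the enzymes that make GABA from glutamate, and Ica1 (ICA69) encodes a BAR domain protein of the Golgi and of immature granules.

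All 7 are protein-coding genes on GRCm38. Slc30a8 (ENSMUSG00000022315) lies on the plus strand at chr15:52295553-52335798. G6pc2 (ENSMUSG00000005232) lies on the plus strand at chr2:69211073-69227841, Gad1 (ENSMUSG00000070880) at chr2:70553072-70602014 and Gad2 (ENSMUSG00000026787) at chr2:22622205-22693874, all on that strand. Ptprn (ENSMUSG00000026204) lies on the minus strand at chr1:75247027-75264502, and Ptprn2 (ENSMUSG00000056553) on the plus strand at chr12:116485720-117276849. Ica1 (ENSMUSG00000062995) lies on the minus strand at chr6:8630527-8778488. Ptprn, Ptprn2 and Gad1 overlap other genes of the matrix, in each case on the opposite strand.

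RefSeq's promoter table for GRCm38.p6 has entries for 6 of the 7 members, and none for Slc30a8. The 250 bases before the start of G6pc2 (chr2:69210823-69211072, plus strand) and of Ptprn2 (chr12:116485470-116485719, plus strand) are printed because these 2 members had the beta-like diet ratios whose counting intervals lay above 0. Capitals mark matches on either strand to TAAT, a core bound by homeodomain factors such as Pdx1, to CANNTG, the E-box bound by factors such as Neurod1, and to TGACG, the half-site of the cAMP response element.
G6pc2: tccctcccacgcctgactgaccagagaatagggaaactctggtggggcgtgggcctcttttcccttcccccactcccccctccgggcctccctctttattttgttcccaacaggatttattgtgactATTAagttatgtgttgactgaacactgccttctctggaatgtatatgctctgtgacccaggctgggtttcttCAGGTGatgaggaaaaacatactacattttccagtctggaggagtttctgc
Ptprn2: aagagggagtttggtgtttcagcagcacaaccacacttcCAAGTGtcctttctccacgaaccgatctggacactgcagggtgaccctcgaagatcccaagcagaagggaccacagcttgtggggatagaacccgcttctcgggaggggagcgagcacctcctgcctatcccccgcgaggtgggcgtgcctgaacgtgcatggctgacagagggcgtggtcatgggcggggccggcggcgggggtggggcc
The G6pc2 window held 1 TAAT, 1 CANNTG and 0 TGACG matches, and the Ptprn2 window held 1 CANNTG match and none of the others. No base lay in more than 1 match. Of 27025 RefSeq windows of the same length, 55.3% held TAAT, 66.0% CANNTG and 17.9% TGACG, so these matches are common letters and describe the sequence only. The Ptprn2 window was 63.6% G or C, above 80.4% of all windows.

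The count matrices held 4352 barcodes and 3599756 unique molecular identifiers (UMIs, each standing for 1 captured RNA molecule) in HAMS, and 5022 barcodes and 4254040 UMIs in HAMSAB. The cell filter left 4185 and 4628 cells, with medians of 704 and 705 UMIs. The libraries shared 6 deposited barcodes, 4 of them among kept cells. Cells were clustered without the 7 members and named from marker genes. The beta-like class had 1342 cells in HAMS and 729 in HAMSAB. There were 436 and 260 cells in the alpha-like class, and 453 and 334 in the delta-like class. A cluster led by Ppy and Pyy, hormones of gamma cells, held 118 and 54 cells; it stayed unnamed because its leading genes held equally many ductal and alpha markers, and is called the Ppy-led cluster. Levels are given as CPM, the UMIs of a gene per 1000000 UMIs of its class and library. Counting is at the 3′ end, so levels carry no gene-length term, although capture can differ between genes. Since each diet has a single library, differences between diets have no replicate check and were not tested. Every interval given is a 95% interval (exact Poisson for CPM, exact conditional binomial for ratios, Clopper-Pearson for shares of cells) and covers counting error only.

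G6pc2 was the member most tied to beta-like cells, and the most abundant. It had 1189 UMIs in HAMS beta-like cells, or 1102 CPM (interval 1041 to 1167), and 1203 UMIs in HAMSAB, or 1645 CPM (1553 to 1740). In alpha-like cells it had 65.8 CPM in HAMS and 46.3 CPM in HAMSAB, from 21 and 9 UMIs. In delta-like cells it had 94.1 CPM and 28.7 CPM, from 34 and 7 UMIs. Both libraries thus placed G6pc2 far higher in beta-like cells than in any other endocrine class, by 16.7-fold over alpha-like and 11.7-fold over delta-like cells in HAMS, and by 35.5-fold and 57.3-fold in HAMSAB. Over the Ppy-led cluster, which had 153 CPM and 24.8 CPM from 15 UMIs and 1 UMI, the fold was 7.21 in HAMS (log2 2.85, 2.12 to 3.69) and 66.3 in HAMSAB (log2 6.05, 3.57 to 11.36). Although left out of the clustering genes, G6pc2 was among the 10 genes with the highest fold in each of the 2 beta-like clusters. Alpha-like and delta-like levels could not be ordered within counting error in either library.

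Insulin RNA gives a scale for the few G6pc2 molecules seen outside beta-like cells. If insulin UMIs (Ins1 and Ins2) in delta-like cells brought G6pc2 along in the beta-like proportion, 22.9 UMIs would be seen in HAMS and 3.87 in HAMSAB, against 34 and 7 observed. The same scaling gives 11.6 and 3.29 in alpha-like cells, against 21 and 9 observed, and 15.4 and 0.882 in the Ppy-led cluster, against 15 and 1. The observed counts in these 3 classes were thus near or above the scaled values. With both libraries summed, the count was below the scaled value in B-like cells, at 8 UMIs (interval 3.45 to 15.8) against 23.4. T-like cells were below it too, at 37 (26.1 to 51.0) against 52.1. Plasma-like cells had 22 against 29.2, a value within the interval (13.8 to 33.3). Other immune classes lay near the scaled value: 11 against 10.2 in macrophage-like, 4 against 2.99 in cDC-like and 1 against 1.11 in pDC-like cells.

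Slc30a8 was shared by alpha-like and beta-like cells and low in delta-like cells. Alpha-like cells had 364 CPM in HAMS (interval 301 to 436) and 252 CPM in HAMSAB (187 to 334). Beta-like cells had 266 CPM (236 to 299) and 294 CPM (256 to 336). Delta-like cells had 47.1 CPM (27.4 to 75.4) and 12.3 CPM (2.54 to 35.9), the latter from 3 UMIs. The zinc transporter was therefore not a beta-cell RNA alone: the beta-like level was below the alpha-like level in HAMS (log2 ratio -0.45, -0.77 to -0.13), and the order could not be told in HAMSAB (0.22, -0.23 to 0.70). Beta-like cells exceeded delta-like cells 5.65-fold in HAMS and 23.9-fold in HAMSAB. Scaled from insulin, alpha-like cells would hold only 2.81 and 0.588 Slc30a8 UMIs, against 116 and 49 observed. The Ppy-led cluster lay in between, with 143 CPM and 74.5 CPM from 14 and 3 UMIs.

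The IA-2 pair differed from each other in their order among classes. Ptprn was nearly level over the endocrine classes: 273 and 293 CPM in beta-like, 207 and 242 CPM in alpha-like and 263 and 238 CPM in delta-like cells, HAMS first. Of the 6 pairwise ratios among these 3 classes, only beta-like over alpha-like in HAMS had an interval above 0 (log2 0.40, 0.01 to 0.81). Ptprn2 was higher in alpha-like than in beta-like cells. Alpha-like cells had 166 CPM in HAMS (124 to 217) and 206 CPM in HAMSAB (147 to 280). Its beta-like levels were 67.7 CPM (53.0 to 85.1) and 124 CPM (100.2 to 153), below the alpha-like level in both libraries (log2 -1.30, -1.83 to -0.76, and -0.73, -1.28 to -0.15). Delta-like cells had 88.6 CPM and 160 CPM of Ptprn2, not separable from beta-like cells in either library. The Ppy-led cluster held 184 and 223 CPM of Ptprn, and 91.8 and 223 CPM of Ptprn2, from 9 to 18 UMIs each.

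The GABA enzymes were the scarcest members. Gad1 had 47 UMIs in HAMS beta-like cells (43.6 CPM, 32.0 to 57.9) and 33 in HAMSAB (45.1 CPM, 31.1 to 63.4). Alpha-like and delta-like cells had 4 Gad1 UMIs each in HAMS and 0 each in HAMSAB, where 3 UMIs would stand for 15.4 CPM in alpha-like and 12.3 CPM in delta-like cells and the exact Poisson intervals reach 19.0 and 15.1 CPM. In HAMS, Gad1 was 3.47-fold higher in beta-like than in alpha-like cells (log2 1.80, 0.35 to 3.73). Gad2 had 10 UMIs over all cells of both libraries, 2 of them in beta-like cells of each library, so no level could be ordered. GAD65 is the main human GABA-enzyme autoantigen, and mouse beta cells are known to carry mostly GAD67, the product of Gad1.

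Ica1 was low and even. It had 59.3 and 67.0 CPM in beta-like cells, 75.2 and 61.8 CPM in alpha-like cells and 63.7 and 102 CPM in delta-like cells, HAMS first. None of the pairwise ratios among these 3 classes had an interval that left out 0. The Ppy-led cluster had 3 and 2 Ica1 UMIs.

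**Figure D1:**
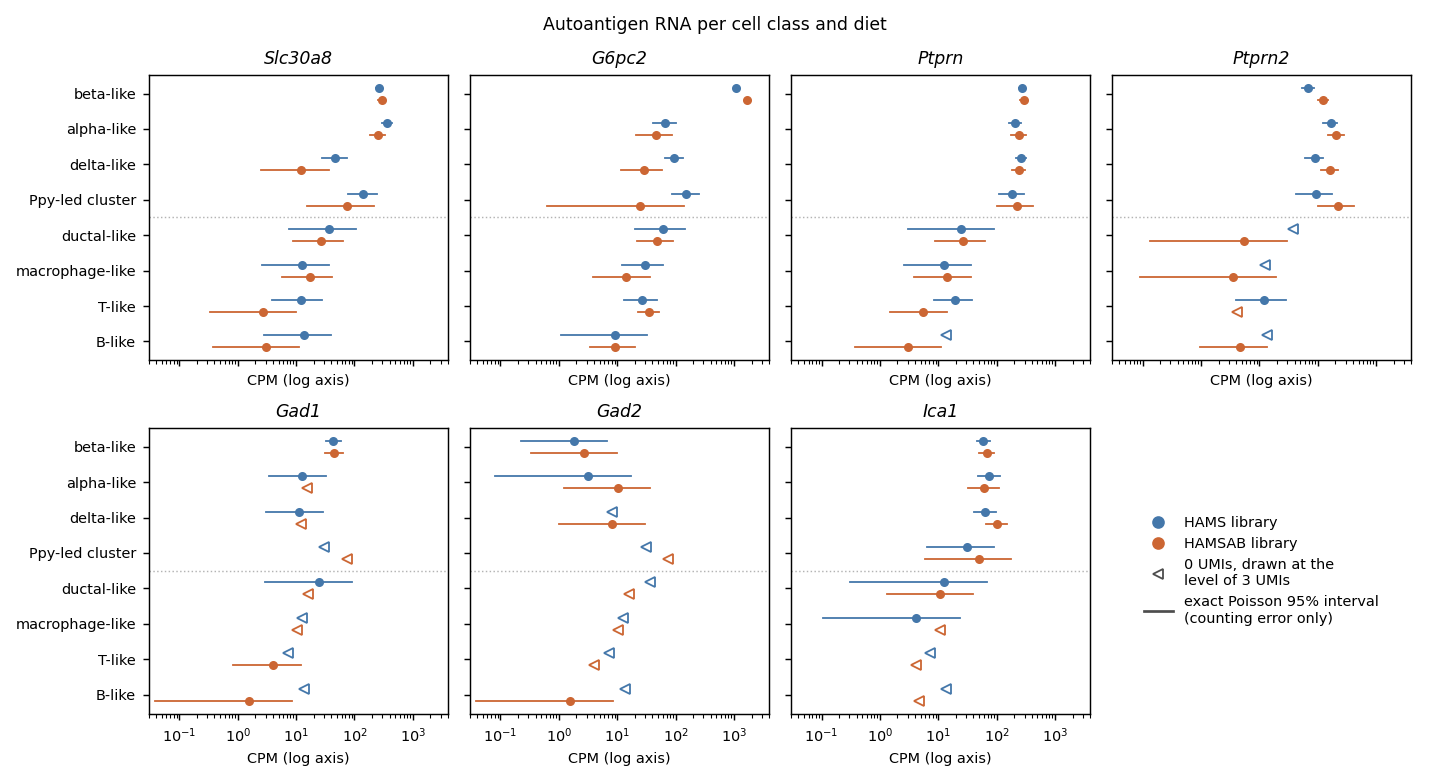
Level of each member (CPM, log axis) in 4 endocrine classes, above the dotted line, and 4 other classes, for the HAMS and the HAMSAB library; lines are exact Poisson intervals, and open triangles, drawn at the level of 3 UMIs, stand for 0 UMIs. G6pc2 stands at 1102 and 1645 CPM in beta-like cells and at 153 CPM or less in the other 7 classes drawn, whereas Ptprn stays between 184 and 293 CPM in all endocrine classes.

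Because the levels differ, the make-up of autoantigen RNA differed between classes. The 7 genes summed to 1814 CPM in HAMS and 2470 CPM in HAMSAB beta-like cells, of which G6pc2 made up 60.8% and 66.6%. In alpha-like cells they summed to 894 and 819 CPM, with Slc30a8 as the leading member at 40.7% and 30.8%. Delta-like cells had 568 and 549 CPM, led by Ptprn at 46.3% and 43.3%. Each of these 3 classes thus had its own leading member in both libraries, although in HAMSAB alpha-like cells Slc30a8 led by only 49 UMIs to 47 of Ptprn. In the Ppy-led cluster the sum was 602 and 596 CPM from 59 and 24 UMIs; Ptprn led in HAMS at 30.5% and tied with Ptprn2 at 37.5% in HAMSAB.

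**Figure D2:**
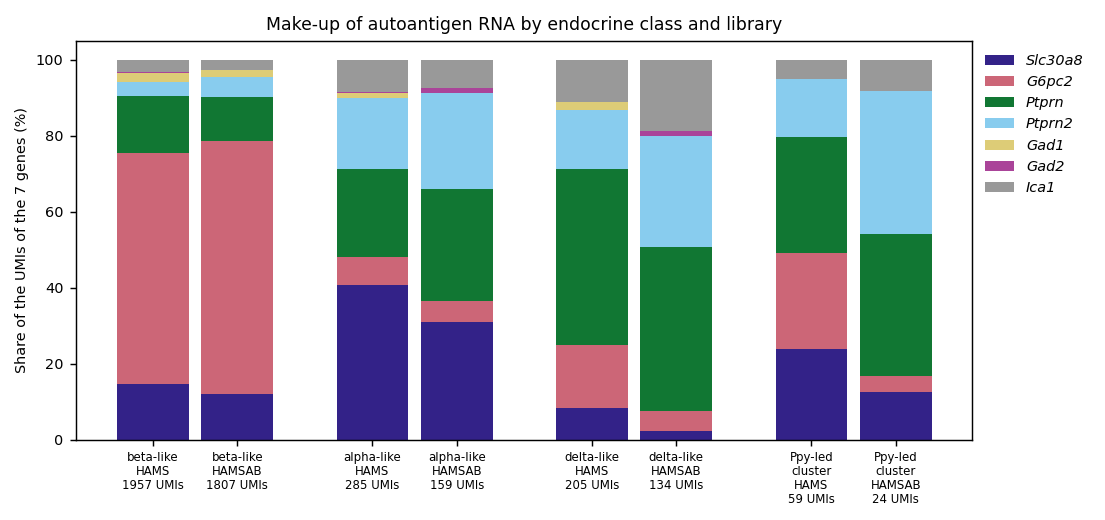
Share of each of the 7 genes in their summed UMIs (%), for 4 endocrine classes in each library, with the number of UMIs under each bar. G6pc2 fills 60.8% and 66.6% of the beta-like bars, Slc30a8 leads the alpha-like bars and Ptprn the delta-like bars.

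Single cells carried few of these molecules. After each cell was thinned to 500 UMIs, so that depth was equal, 941 HAMS and 587 HAMSAB beta-like cells remained and 401 and 142 shallower cells were left out. A G6pc2 UMI was seen in 38.6% (35.5 to 41.8) of HAMS and 51.3% (47.2 to 55.4) of HAMSAB beta-like cells, and without thinning in 47.5% and 62.8%. Shares for Ptprn were 12.3% and 15.8% (unthinned 18.0% and 23.2%), and for Slc30a8 10.8% and 13.3% (unthinned 17.4% and 24.3%). Ptprn2 was seen in 3.72% and 5.79% of thinned beta-like cells, Ica1 in 2.87% and 2.90%, Gad1 in 2.02% and 2.21% and Gad2 in none, which allows up to 0.391% and 0.626%. T-like cells, which should not make these genes, give the background: G6pc2 was seen in 0 of 266 HAMS thinned cells (up to 1.38%) and in 0.907% of 551 HAMSAB thinned cells (unthinned 1.89% and 1.28%), at median depths of 964 and 783 UMIs against 671.5 and 803 in beta-like cells.

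Few beta-like cells showed several of the 7 at this depth. No member was seen in 44.6% of HAMS and 32.7% of HAMSAB beta-like cells, 1 member in 42.2% and 47.0%, 2 members in 11.7% and 16.5%, and 3 or more in 1.49% and 3.75%. The mean was 0.929 and 1.25 member UMIs per 500. Alpha-like cells without any member made up 65.1% and 68.5%, and delta-like cells 81.1% and 79.6%. Among T-like cells 97.7% and 98.9% had none, and among B-like cells 100% and 98.8%. A cell with none is one in which none was caught at 500 UMIs; it may still make the RNA.

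**Figure D3:**
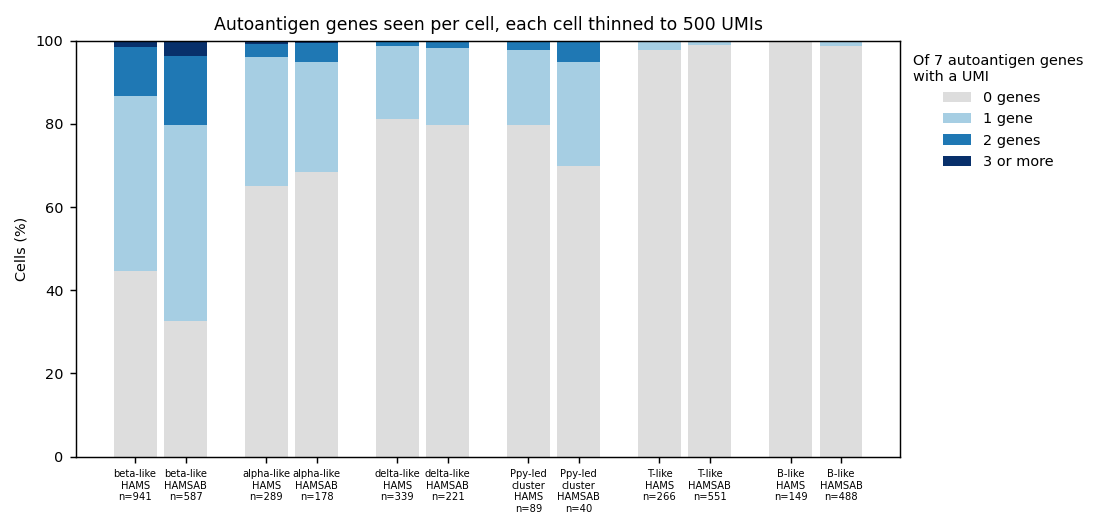
Share of cells (%) in which 0, 1, 2 or at least 3 of the 7 genes had a UMI, each cell thinned to 500 UMIs, by class and library, with the number of cells under each bar. The share with none falls from 97.7% or more in T-like and B-like cells to 44.6% (HAMS) and 32.7% (HAMSAB) in beta-like cells.

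The study compared the diets. In beta-like cells G6pc2 and Ptprn2 were higher in the HAMSAB library, and the other members lay within counting error. G6pc2 went from 1102 to 1645 CPM, a ratio of 1.49 (log2 0.58, 0.46 to 0.69), above 89.97% of the 4638 genes that had 50 or more UMIs in all. Ptprn2 went from 67.7 to 124 CPM, a ratio of 1.84 (log2 0.88, 0.42 to 1.34), above 97.3% of those genes. An interval above 0 was seen for these 2 of 6 members and for 14.0% of genes. Log2 ratios were 0.14 (-0.12 to 0.40) for Slc30a8, 0.10 (-0.16 to 0.36) for Ptprn, 0.05 (-0.64 to 0.72) for Gad1 and 0.18 (-0.39 to 0.73) for Ica1. Gad2, with 2 UMIs in each library, gives no usable ratio.

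Of the 6 members with at least 50 UMIs, 0 were 2-fold apart between the diets in beta-like cells, where 3.15% of genes were. Only Ptprn2 was at least 1.5-fold higher, as were 9.79% of genes. All 6 ratios were above 0, with a median of 0.16, beside 51.0% above 0 and a median of 0.01 over 7635 genes with at least 20 UMIs, a minimum that the same 6 members pass. Per 1000 insulin UMIs, G6pc2 had 9.46 UMIs (8.93 to 10.01) in HAMS and 12.6 (11.9 to 13.3) in HAMSAB, and Ptprn2 0.581 (0.455 to 0.730) and 0.953 (0.767 to 1.17). Slc30a8, by contrast, had 2.28 and 2.25 per 1000. Relative to insulin, too, G6pc2 and Ptprn2 were higher in HAMSAB.

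Other measures moved between the beta-like cells of the 2 libraries as well. Median depth was 671.5 UMIs in HAMS and 803 in HAMSAB. The 10 beta markers summed to 127930 and 149058 CPM, none of them at 0. The 10 alpha markers summed to 3209 and 1888 CPM, with 0 and 4 at 0, and the 7 delta markers to 2503 and 694 CPM, with 2 and 1 at 0. In cells thinned to 500 UMIs the G6pc2 log2 ratio was 0.52 (0.33 to 0.70) and the Ptprn2 log2 ratio 0.64 (-0.06 to 1.34), the latter from 37 and 36 UMIs and no longer clear of 0. In cells with at least 90% of their hormone UMIs from insulin the log2 ratios were 0.55 (0.43 to 0.67) and 0.79 (0.32 to 1.26). The part of depth and of marker RNA from other classes in these ratios was otherwise not tested.

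The beta-like class joined 2 clusters. The larger held 1224 HAMS and 594 HAMSAB cells and was led by Ins2, Ins1, Mafa and Ucn3. There the log2 ratio was 0.58 (0.45 to 0.71) for G6pc2 and 0.95 (0.42 to 1.49) for Ptprn2. The smaller held 118 and 135 cells and was led by interferon-induced genes such as Gbp4 and Iigp1. There the ratio was 0.39 (0.11 to 0.67) for G6pc2 and 0.27 (-0.74 to 1.34) for Ptprn2, the latter from 13 and 27 UMIs. Whether the ratios differ between the clusters was not tested. Leiden resolution 2, a finer clustering, split the beta-like cells (1353 in HAMS, 735 in HAMSAB) further, with unlike library shares. A cluster with Prlr, G6pc2 and Mafa among its leading genes held 163 HAMS and 226 HAMSAB cells. Another, with Npas4, Mt1 and Mt2 among them, held 337 and 81. The part of this make-up in the diet ratios of the whole class was not tested.

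The authors' deposited table for beta cells lists G6pc2, with a log2 fold change of 0.44 and an adjusted p of 4.12e-05. That p was computed by the authors over cells and is no test across mice, and the header does not name which diet was set against which. No other member is in the authors' deposited tables for beta, alpha, delta or immune cells, the beta table holding 115 genes.

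In alpha-like cells Slc30a8 was lower in the HAMSAB library, from 364 to 252 CPM (log2 -0.53, -1.04 to -0.03). Its interval was below 0, as for 15.7% of genes. The ratio was -0.01, given without an interval, in the 113 HAMS and 49 HAMSAB cells with at least 500 genes. Ptprn (0.23, -0.35 to 0.79) and Ptprn2 (0.31, -0.32 to 0.93) lay within counting error. Of these 3 members with at least 50 UMIs, 0 were 2-fold apart, beside 4.82% of 1535 genes, and 0 were 1.5-fold apart, beside 21.8%. The other 4 members had under 50 UMIs here. Marker RNA also moved in alpha-like cells, where the 10 alpha markers summed to 100134 CPM in HAMS and 166876 CPM in HAMSAB. The 10 beta markers summed to 4665 and 2034 CPM, and the 7 delta markers to 6189 and 2049 CPM. The part of these shifts in the alpha-like ratios was not tested.

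In delta-like cells the IA-2 pair were the 2 members with at least 50 UMIs. Ptprn2 went from 88.6 to 160 CPM (log2 0.85, 0.14 to 1.57), in the direction seen in beta-like cells, and Ptprn from 263 to 238 CPM (-0.15, -0.64 to 0.34). Neither was 2-fold apart, beside 2.38% of 1892 genes, and Ptprn2 was at least 1.5-fold higher, as were 9.88%. Its interval was above 0, as for 10.5% of genes. Ica1 was 0.69 (-0.19 to 1.57) from 23 and 25 UMIs.

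G6pc2 and Slc30a8 had few UMIs in delta-like cells, 34 and 7 for G6pc2 and 17 and 3 for Slc30a8, under the minimum of 50 used for counts. G6pc2 went from 94.1 to 28.7 CPM (log2 -1.71, -3.13 to -0.52) and Slc30a8 from 47.1 to 12.3 CPM (-1.94, -4.35 to -0.15). Both intervals lay below 0, as did those of 4.82% of the 4332 genes with at least 20 UMIs, a minimum that both pass. Insulin RNA in delta-like cells moved with them, from 6700 to 1259 CPM. Scaled from insulin, delta-like cells would hold 5.53 Slc30a8 UMIs in HAMS and 0.691 in HAMSAB, against 17 and 3 observed. In delta-like cells with at least 90% of their hormone UMIs from Sst (337 in HAMS, 301 in HAMSAB), the ratios were -1.84 for G6pc2 and -0.84 for Slc30a8. Those 2 values are given without intervals and rest on no more than the few UMIs above. The part of insulin-bearing material in these ratios was otherwise not tested.

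In the Ppy-led cluster no member reached 50 UMIs, where 5.66% of 389 genes were 2-fold apart. Ptprn2 had 9 UMIs in each library (91.8 and 223 CPM) and G6pc2 15 and 1, while insulin went from 16610 to 1737 CPM.

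**Figure D4:**
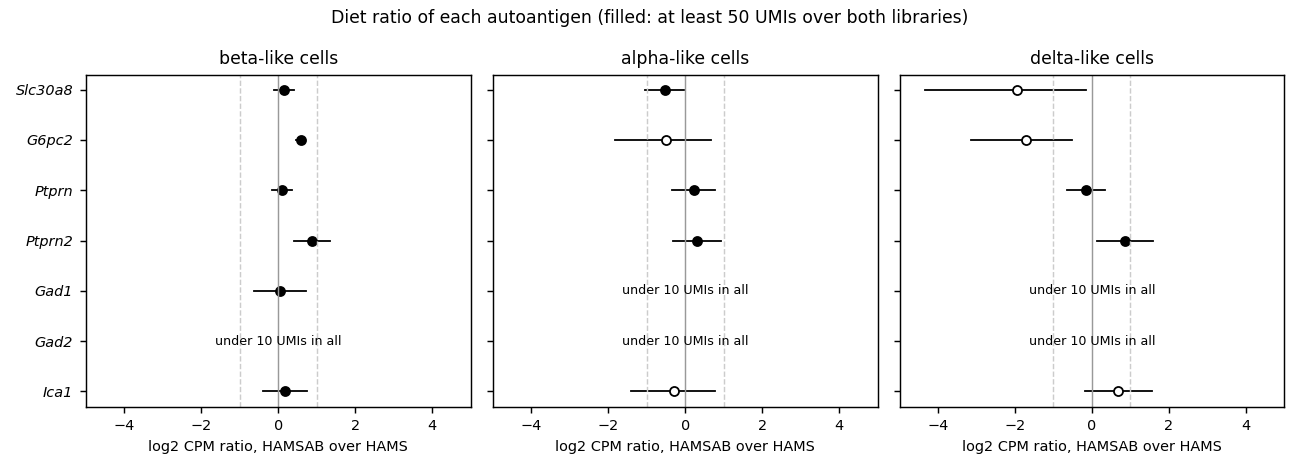
Log2 CPM ratio of HAMSAB over HAMS for each member in 3 endocrine classes, with exact conditional binomial intervals; filled points rest on at least 50 UMIs over both libraries, and dashed lines mark a 2-fold difference. G6pc2 (0.58) and Ptprn2 (0.88) lie above 0 in beta-like cells, and Slc30a8 (-0.53) lies below 0 in alpha-like cells. In delta-like cells Ptprn2 (0.85) lies above 0, while Slc30a8 and G6pc2, each on under 50 UMIs, lie below 0.

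G6pc2 also appeared in immune classes, in few cells. HAMSAB plasma-like cells had 21 G6pc2 UMIs, all of them in 3 of the 6 cells, out of 61, in which insulin made up at least 1% of UMIs, and 13 of them in 1 cell. HAMSAB T-like cells had 26 G6pc2 UMIs, 22 of them in the 13 insulin-bearing cells of 703, and HAMS T-like cells had 11, all in the 19 such cells of 317. Most G6pc2 UMIs of these T-like and plasma-like cells therefore sat in barcodes that also held insulin RNA. Among other members and classes, Ptprn had 1 of 4 UMIs in such cells among HAMSAB T-like and 3 of 6 among HAMSAB plasma-like cells, Slc30a8 had 2 of 5 among HAMS T-like cells, and G6pc2 had 0 of 3 among HAMSAB cDC-like cells.

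The genes around each member in its pathway were read from lists chosen by function. Counts for every list are to be read beside all 7635 genes with at least 20 UMIs in beta-like cells. Of those genes, 51.0% were higher in HAMSAB, with a median log2 ratio of 0.01. Whether a list differed from all genes was not tested. Among zinc transport and storage genes of beta-like cells, 9 of 14 measured were higher in HAMSAB and 5 lower, with a median log2 ratio of 0.33. Slc30a4, another vesicular zinc transporter, was at 0.92 (0.25 to 1.60), whereas the zinc-binding metallothioneins Mt1 and Mt2 were at -0.56 (-0.82 to -0.32) and -0.62 (-0.88 to -0.37). The plasma membrane importer Slc39a1 was at -0.29 (-0.44 to -0.15). Slc30a8 itself, at 0.14, lay between these. Over the whole list 2 intervals lay above 0 and 4 below, and 3 genes not named here were at least 2-fold apart.

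In the glucose phosphate cycle, G6pc2 included, 5 of 7 measured genes were higher and 2 lower, with a median of 0.05. The glucose transporter Slc2a2 was at 0.35 (0.12 to 0.58), and the phosphofructokinase gene Pfkl at -0.84 (-1.62 to -0.11). G6pc2 had the highest ratio of the 7. Of these genes, 2 had an interval below 0, Pfkl among them, and 1 gene not named here was at least 2-fold apart.

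Among receptor tyrosine phosphatases, 6 of 9 were higher and 3 lower, with a median of 0.13. Besides Ptprn2, Ptprj was at 0.56 (-0.23 to 1.35), and Ptprs at -0.22 (-0.64 to 0.19) was the lowest of those with at least 50 UMIs. Ptprn2 was not alone in this list, where 2 genes had an interval above 0 and 1 gene, not named here, was at least 2-fold apart. Granule membrane and cargo genes, the neighbours of IA-2 and phogrin in the vesicle, were higher in 13 of 21 and lower in 8, with a median of 0.18. Scg2 was at 0.93 (0.85 to 1.01), Rab3d at 0.73 (0.30 to 1.17) and Cpe, the carboxypeptidase that trims prohormones, at 0.66 (0.53 to 0.79). Pcsk1n, the proSAAS inhibitor of prohormone convertase, was at -1.10 (-1.25 to -0.94), and Chga at -0.23 (-0.26 to -0.19). The granule genes thus lay on both sides of 0.

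For GABA synthesis and signalling, 5 of 8 measured genes were higher and 3 lower, with a median of 0.11. Abat, the enzyme that breaks GABA down, was at 0.72 (0.01 to 1.43). Of the BAR domain and Golgi genes, Ica1 included, 7 of 9 were higher and 2 lower, with a median of 0.20. Its paralog Ica1l was at 0.48 (-0.26 to 1.20), and Arl1 at 0.33 (0.04 to 0.61) was the only one with an interval above 0.

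Other reported islet autoantigens, hormones included, were higher in 11 of 16 and lower in 5 in beta-like cells, with a median of 0.15. Iapp, the precursor of amylin, was at 0.89 (0.85 to 0.93) and the tetraspanin Tspan7 at 0.52 (0.06 to 0.99). Ins1 was at 0.21 (0.19 to 0.24) and Ins2 at 0.14 (0.13 to 0.16). Ucn3 was at -0.47 (-0.79 to -0.15) and Vdac2 at -0.57 (-1.30 to 0.12). Over the whole list 8 intervals lay above 0 and 2 below, and 1 gene not named here was at least 2-fold apart. G6pc2 at 0.58 and Ptprn2 at 0.88 thus lay below Iapp and above Tspan7.

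Across 26 profiles (13 classes in each library), the genes most like each member were found by Pearson correlation of log2(CPM + 10), among 4877 genes with at least 200 UMIs. These profiles share libraries and depth, so the values are a description. G6pc2 was most like Ins2 (0.913), Ins1 (0.910) and Iapp (0.876). Slc30a8 was most like Ociad2 (0.958), Rundc3a (0.891) and Pfkfb2 (0.888). For Ptprn the nearest were the granule genes Scg3 (0.965) and Pam (0.964), then Map1b (0.959), and for Ptprn2 Pak3 (0.950), Fam184a (0.946) and Kif21a (0.940). Ica1 was nearest to Cacna2d1 (0.912), Fn3krp (0.900) and Neurod1 (0.877). Gad1 and Gad2, with 94 and 10 UMIs in all, were too scarce for this. Between members, Ptprn and Ptprn2 had the highest correlation (0.823), and G6pc2 with Ptprn2 was at 0.394.

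**Figure D5:**
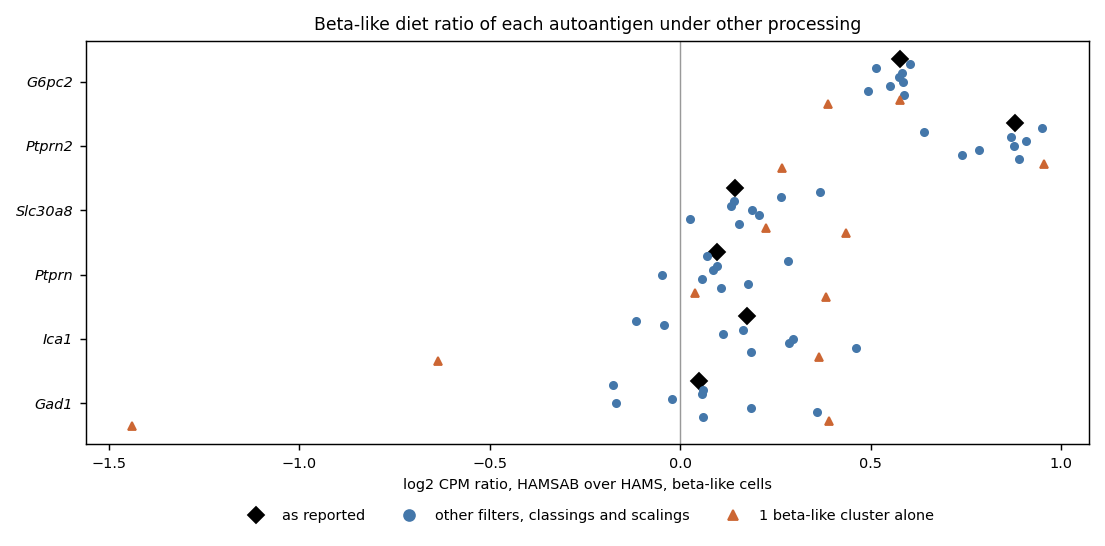
Log2 CPM ratio of HAMSAB over HAMS in beta-like cells for 6 members, as reported (diamonds), under other filters, classings and scalings (circles) and in each beta-like cluster alone (triangles). G6pc2 and Ptprn2 stay above 0 at every point drawn, whereas Ptprn, Ica1 and Gad1 have points on both sides of 0.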

How the data were processed

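The islet libraries, 1 per diet, were grouped by the treatment label. The deposited matrices hold raw counts of UMIs per gene and barcode, written by Cell Ranger 5.0.0 per the file headers. The submitters' processing notes name Seurat, mm10 and GRCm38. How cells were called and genes annotated is not given in the sources used here. Comparison tables that the authors deposited give a log2 fold change and p-values per gene, computed by the authors from cells.

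Barcodes needed 200 or more genes and no more than 20% mitochondrial UMIs. They were scaled to 10000 UMIs and clustered with scanpy 1.11.5 (2000 variable genes, 30 principal components, 15 neighbours, Leiden resolution 1, igraph 0.11.9), leaving the 7 members out. A cluster was named where at least 3 of a class's markers were detected and its 10 leading genes met a marker rule. These genes had to hold more of that class's markers than of any other class's, or none of any other's. By the latter, a cDC-like cluster of 59 HAMS and 148 HAMSAB cells was named with 0 cDC markers among its 10 leading genes. The handling of ties was settled after the Ppy-led cluster was seen. Scrublet marked 4 of 8813 cells (0.0454%), under the 0.5% at which it was taken to have worked, so doublets were kept. UMIs were summed per class and library and divided by the class total. Classes needed at least 20 cells in each library. Counts past a fold used genes with 50 or more UMIs in all, list medians those with at least 20. Interval coverage was tested on data simulated with Poisson counting error alone. That check cannot speak to variation between cells, mice or libraries.

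Named genes were the 7 members, up to 3 highest and 3 lowest list members with at least 50 UMIs in the class, hormones that touch a member, and the 3 genes most like each member with at least 200 UMIs; not all of these are printed, and some are not reported here. The members and lists were chosen with earlier results of these data known. Alternatives tried were a filter of 500 genes per cell, thinning to 500 UMIs, resolution 2, members among the clustering genes, classing cell by cell, cells with at least 90% of their own hormone, equal weight per cell, totals without hormones, Actb, Malat1 and mitochondrial genes, each beta-like cluster alone, and 20 UMIs per gene. Gene positions are from GENCODE and upstream sequences from RefSeq, both of GRCm38.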

Additional observations from a re-analysis of the deposited data

Results flagged for a closer look

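The diet ratio of G6pc2 had opposite directions in 2 endocrine classes. It was 0.58 on the log2 scale (HAMSAB over HAMS) in beta-like cells and -1.71 in delta-like cells, where it rests on 34 and 7 UMIs. With 1 library per diet the difference between the classes was not tested. Insulin RNA in delta-like cells was 6700 CPM in HAMS and 1259 CPM in HAMSAB.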

How the results depend on the processing

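G6pc2 lay between 0.39 and 0.60 and Ptprn2 between 0.27 and 0.95 in beta-like cells under all alternatives run. In the smaller beta-like cluster alone, the log2 ratios were 0.43 for Slc30a8, 0.39 for G6pc2, 0.38 for Ptprn, 0.27 for Ptprn2, -1.44 for Gad1 (11 and 7 UMIs) and -0.64 for Ica1 (9 and 10 UMIs). Genes at least 2-fold apart numbered 146 in beta-like cells as reported, 629 with 20 UMIs per gene and 63 after thinning; 74, 368 and 47 in alpha-like cells; and 45 and 374 (20 UMIs per gene) in delta-like cells. The cause was not tested beyond the number of genes and cells counted. After thinning, no G6pc2 UMI was left in HAMSAB delta-like cells, so no ratio is given. Leaving out doublets was not run, since Scrublet had not worked. No paired analysis was possible because each diet has 1 library and no test was made. Depth limits Gad2 everywhere and Gad1 outside beta-like cells.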
